A study of Saccharomyces cerevisiae with 16 samples.

Results

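Untreated libraries of small subunit (SSU) processomes were compared between yeast with wild-type Has1 (Has1-WT) and yeast with the H375A substitution in Has1 (Has1-H375A). They were taken by label, 4 per genotype, and made up 8 of the 16 libraries of the series; the other 8 were treated with 1% dimethyl sulfate (DMS). All 6647 nucleotides of the profile and all 4 bases were used. The particles came from Saccharomyces cerevisiae grown in YPD, harvested at mid-log phase, and were isolated by a TAP tag on their subunit Utp10, and their RNA was read by DMS-MaPseq, in which reverse transcription records modified bases as mutations. The 4 libraries of a genotype were described as biological replicates. The labels say neither whether the mutant protein was the cells' only Has1 nor what the strain background was. The genotype cannot be checked in these data, because the profile holds ribosomal RNA alone.

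The SSU processome is the nucleolar particle in which the first part of the long pre-rRNA folds and is cut. The 5' external transcribed spacer (5' ETS) is removed by cuts at A0 and A1, and internal transcribed spacer 1 (ITS1) is cut at A2, or further downstream at A3, which parts the precursors of the small and large subunit. Site D, the 3' end of 18S, is cut late, in the cytoplasm, while B1, E, C2 and C1 lie on the path to 5.8S and 25S. Has1 is a DEAD-box RNA helicase that takes part in the assembly of both subunits. In libraries without DMS, read depth shows how far reads covered each stretch. In 18S, 5.8S and 25S it does not tell pre-rRNA from mature rRNA. A high mutation rate marks bases that carry a natural modification on the pairing face or that are misread for other reasons.

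Cleavage sites are shown first because depth steps are read at them. Position 1 is the first nucleotide of the profile, the rDNA unit RDN37 lies on chromosome XII, and capitals give the 15 nt after the cut in each window of 30 nt.

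A0, after position 610: aaacucaauaaguauCUUCUAGCAAGAGGG
A1, after position 700: uucuuuuaagauaguUAUCUGGUUGAUCCU
D, after position 2500: gcggaaggaucauuaAAGAAAUUUAAUAAU
A2, after position 2712: ccguuucaauacaacACACUGUGGAGUUUU
A3, after position 2785: cccagagguaacaaaCACAAACAAUUUUAU
C1, after position 3251: aacaauguucuuaaaGUUUGACCUCAAAUC

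Some of the modified bases compared below are shown with 10 nt on either side, the modified base in capitals. In 18S these were the m1acp3-pseudouridine of helix 31 at nucleotide 1191 (position 1891), finished by the enzyme Tsr3 on late cytoplasmic precursors, and the m7G at nucleotide 1575 (position 2275), made by Bud23. In 25S they were the m1A at nucleotide 645 (position 3896), made by Rrp8, and the m3U at nucleotides 2634 and 2843 (positions 5885 and 6094), made by Bmt5 and Bmt6.

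U1891: uuaauuugacUcaacacgggg
G2275: cuucaacgagGaauuccuagu
A3896: gcccgucuugAaacacggacc
U5885: gcacaucuguUaaacgauaac
U6094: agucaagcguUcauagcgaca

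Each library held 5955 to 101588 mutated reads. Median read depth over 18S was 455 to 1648.5 in WT and 361 to 5557.5 in H375A, whose replicate 3 was the deepest of all. Effective depth, the reads of sufficient quality at a nucleotide, had medians of 314 to 4933 over 18S and of 90 to 1547 over 25S. A rate near 1% had a 95% Wilson interval of 0.325% to 2.77% at the shallowest of these 18S depths and of 0.752% to 1.31% at the deepest, and such intervals cover counting error only. The mean mutation rate over the profile was 0.396% to 0.423% in the 8 libraries.

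In both genotypes the profile fell from the 5' ETS to the large subunit. Relative to 18S, 25S was lower in every H375A library than in every WT library. The 5' ETS up to A0 was lower in H375A in each same-numbered pair, with overlapping groups. Neither difference passed adjustment over the 9 stretches, and 4 pairs allow no exact sign-flip p below 0.125. For 25S the adjustment could not decide. A single stretch at 0.0286, the smallest exact permutation p of 4 against 4, adjusts to 0.257. The 5' ETS, absent from mature 18S, lay above 18S in all 8 libraries up to A0, while 25S, no part of the SSU processome, was at 0.285 to 0.554 of the depth of 18S. A library's depth in a stretch is relative, so less of one stretch and more of 18S cannot be told apart.

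Read depth of 25S over that of 18S was 0.337, 0.554, 0.434 and 0.382 in WT replicates 1 to 4. In H375A replicates 1 to 4 it was 0.304, 0.285, 0.295 and 0.288. Every H375A library lay below every WT library, and the H375A libraries stood close together whereas WT spread widely, with WT replicate 2 the highest. The means were 0.427 ± 0.0935 and 0.293 ± 0.00848 (SD, n = 4), a log2 difference of -0.52 (SE 0.15, exact two-sided permutation p = 0.0286, the smallest that 4 against 4 allows, adjusted over 9 stretches 0.257). With the first 200 nt of 18S as the reference in place of all of 18S, the difference was -0.37 (exact permutation p = 0.4), and with the last 200 nt it was -0.58 (exact permutation p = 0.0286).

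**Figure D1:**
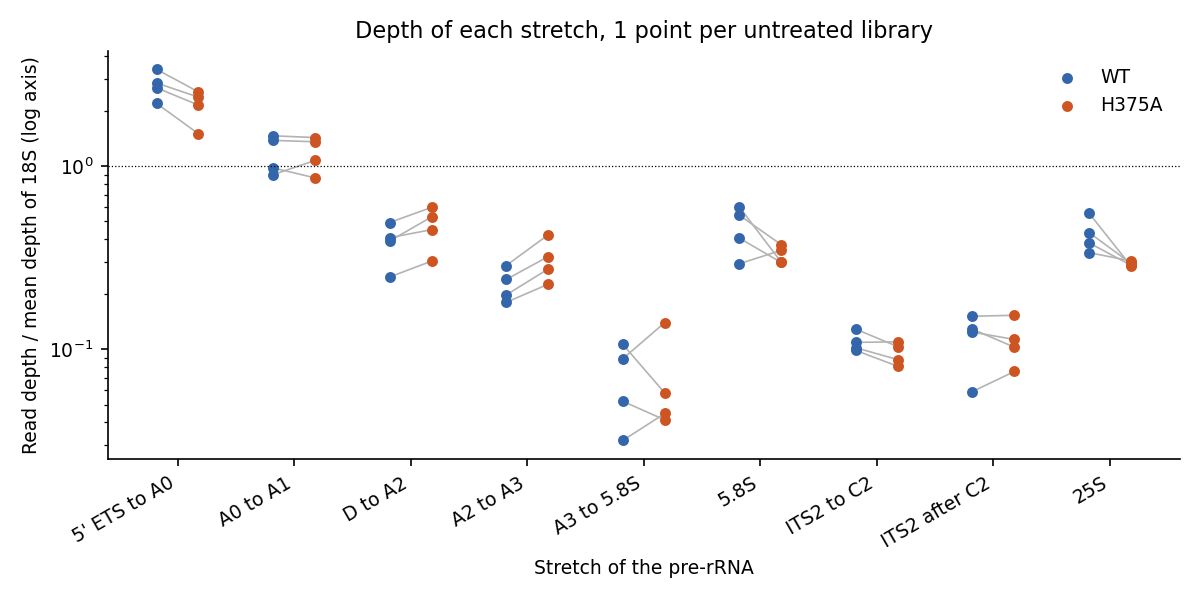
Read depth of 9 stretches of the pre-rRNA over the mean depth of 18S (vertical log axis), 1 point per untreated library, WT in blue and H375A in orange, with grey lines joining libraries of the same replicate number. For 25S the 4 H375A points lie between 0.285 and 0.304, all below the WT points, while the other stretches overlap between genotypes.

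The 5' ETS up to A0 was the deepest stretch in every library. Its depth over 18S was 2.20, 2.85, 3.38 and 2.68 in WT replicates 1 to 4 and 1.502, 2.38, 2.54 and 2.16 in H375A replicates 1 to 4. The groups overlapped, yet H375A was the lower in 4 of 4 same-numbered pairs, and replicate 1 was the lowest of each genotype. Means were 2.78 ± 0.485 and 2.15 ± 0.458 (log2 difference -0.38, SE 0.21, exact permutation p = 0.114, adjusted 0.386). With the first 200 nt of 18S as the reference, the difference was -0.23 (exact permutation p = 0.6). With the last 200 nt it was -0.44 (exact permutation p = 0.0571). Between A0 and A1, the last piece to leave the 5' end of 18S, depth was 1.18 in both genotypes (log2 difference 0.01, SE 0.24, exact permutation p = 1).

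Within ITS1, stretches upstream of A3 leaned the other way. From D to A2 the ratio was 0.249, 0.391, 0.493 and 0.407 in WT and 0.303, 0.529, 0.596 and 0.450 in H375A (log2 difference 0.29, SE 0.30, exact permutation p = 0.371). From A2 to A3 it was 0.181, 0.198, 0.287 and 0.241 in WT and 0.227, 0.275, 0.422 and 0.321 in H375A. Depth from A2 to A3 does not tell precursors cut at A2 from those not yet cut there. Groups overlapped in both stretches, although in each of them all 4 H375A libraries exceeded the WT library of their number. The A2 to A3 means were 0.227 ± 0.0475 and 0.311 ± 0.0833 (log2 difference 0.44, SE 0.24, exact permutation p = 0.143, adjusted 0.386). From A3 to 5.8S depth was low and alike, 0.0698 ± 0.0340 and 0.0709 ± 0.0466.

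The 5.8S, which is matured together with 25S, was at 0.293, 0.598, 0.540 and 0.405 in WT and 0.348, 0.299, 0.373 and 0.298 in H375A. It was lower in H375A in 3 of 4 pairs (log2 difference -0.43, SE 0.25, exact permutation p = 0.171, adjusted 0.386), with pair 1 the exception. The ratio of 5.8S to 25S did not part the genotypes, 1.06 ± 0.153 in WT and 1.12 ± 0.106 in H375A. ITS2 had 0.110 and 0.0955 of the depth of 18S up to C2 (exact permutation p = 0.257) and 0.116 and 0.111 after C2 (exact permutation p = 0.971).

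The stretch from A2 to A3 was also set directly against 25S. Their ratio, a description chosen after the values were seen, was 0.536, 0.358, 0.661 and 0.631 in WT and 0.747, 0.965, 1.43 and 1.12 in H375A. All H375A libraries lay above all WT libraries, with means of 0.546 ± 0.137 and 1.07 ± 0.288.

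In the DMS libraries of the same genotypes and replicate numbers, 25S, 5.8S, the 5' ETS up to A0 and both stretches between D and A3 differed in the same direction as without DMS. Their 25S ratio was 0.441 ± 0.0696 in WT and 0.292 ± 0.00999 in H375A, and their A2 to A3 ratio 0.255 ± 0.0264 and 0.350 ± 0.0533. Neither overlapped between genotypes, nor did 5.8S with 0.447 and 0.309 (each exact permutation p = 0.0286, adjusted over 9 stretches 0.0857). The 5' ETS up to A0 was at 2.88 and 2.20 there (exact permutation p = 0.114). The sign differed from that of the untreated libraries for A0 to A1 (log2 difference -0.02 with DMS), A3 to 5.8S (0.29) and ITS2 up to C2 (0.08), none of which passed in either set. Whether a DMS library and the untreated library of the same number came from the same cells is not said beyond that each had its own untreated control, so these values are set beside the others and not counted as further replicates.

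In bins of 100 nt, 0 of 67 bins (0%) were called by limma at an adjusted p under 0.05, with 25 bins at an unadjusted p under 0.05 and a lowest adjusted p of 0.0941, although 37 were called, all lower in H375A, without WT replicate 1. Libraries of the same replicate number deviated together from their group means in these bins, with correlations of 0.590, 0.417, 0.777 and 0.714 for numbers 1 to 4. The numbers were therefore taken to pair the libraries, although the labels do not say what a number shares. This choice was made after seeing the same bins that the paired fit tests. The block removes those shared deviations, so the calls that follow depend on the choice. With the replicate number as a block, limma called 20 of 67 bins, all lower in H375A (29.9%, lowest adjusted p = 0.0175). They were 14 of the 34 bins inside 25S, by -0.65 to -0.45 on the log2 scale, and 6 of the 7 bins of the 5' ETS, by -0.52 to -0.28. Neighbouring bins share reads and are not independent. Replicate 2 carried much of this: without that pair of libraries 0 bins were called (limma, 31 bins at an unadjusted p under 0.05), and without replicate 1, 3 or 4 the count was 46, 11 or 4.

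The direction was more even than the calls. All bins of a library share the same 18S reference, so bins of 25S are parts of the 25S ratio given above and not replicates. All 34 bins of 25S were lower in H375A, by 0.37 to 0.65 on the log2 scale, against 51 of all 67 bins. Libraries of the genotypes did not overlap in 14 bins, all in 25S, out of 67 (20.9%). In the 5' ETS 6 of 7 bins were lower, with a median log2 difference of -0.34, and all 3 bins inside ITS1 were higher, by 0.27 to 0.43. Over the mean of the whole profile in place of 18S, the same paired fit of limma called 14 bins higher, 10 of them in 18S, 3 in ITS1 and 1 in the 5' ETS, and 2 lower, both in 25S. This change of reference moves every bin by the same amount, so it leaves the difference between 25S and 18S as it was and changes only how that difference is split into higher and lower bins. On that scale all 34 bins of 25S and 6 of 7 bins of the 5' ETS were lower, and all 18 bins of 18S were higher.

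**Figure D2:**
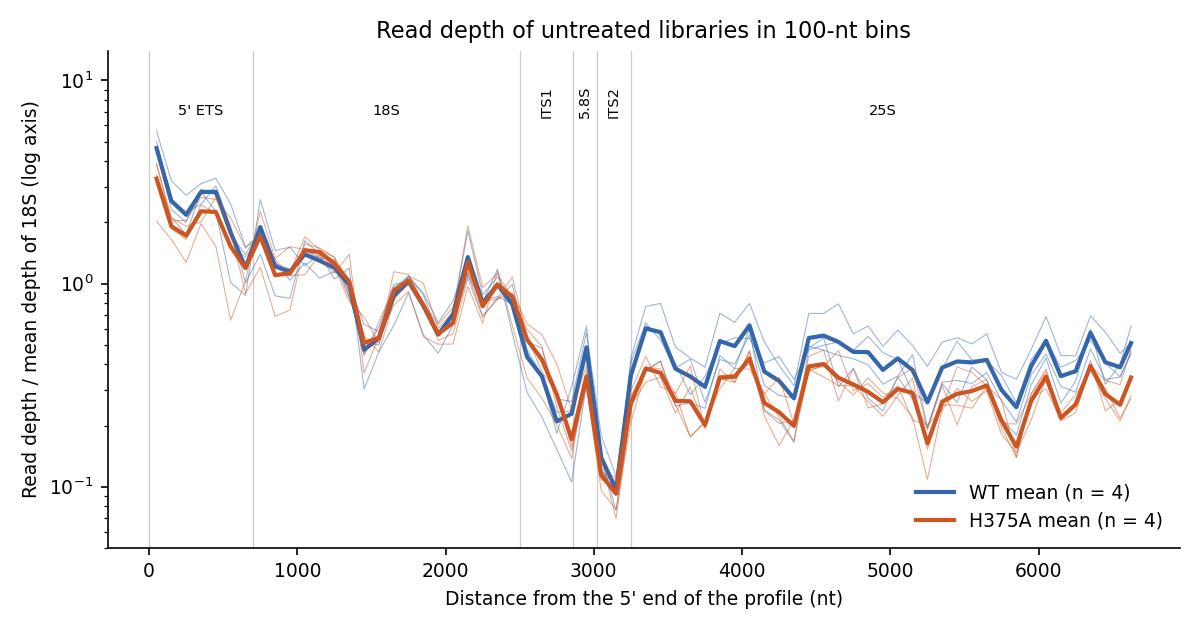
Read depth in 100-nt bins over the mean depth of 18S (vertical log axis) along the profile (horizontal axis, nt from its 5' end), with thin lines for the 8 untreated libraries and thick lines for the means of WT (blue) and H375A (orange). Both genotypes fall from the 5' ETS to ITS2 and rise again at 25S, where the H375A mean lies below the WT mean in all 34 bins.

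**Figure D3:**
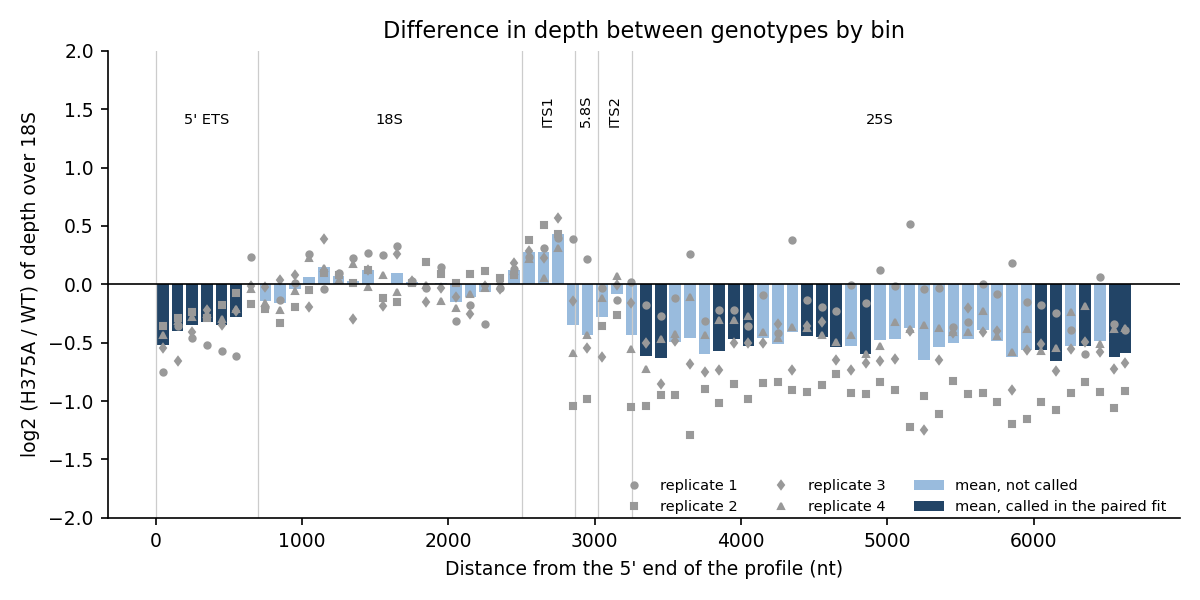
The log2 ratio of H375A to WT in depth over 18S for each 100-nt bin (bars, dark where the paired limma fit called the bin) and for each same-numbered pair of libraries (grey symbols), along the profile in nt from its 5' end. The 20 dark bars lie in the 5' ETS and in 25S, and the pair of replicate 2 lies farthest below 0 over most of 25S.

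The bin with the greatest fall, at positions 6101 to 6200 in 25S, had 0.258, 0.444, 0.387 and 0.312 of the depth of 18S in WT and 0.217, 0.211, 0.231 and 0.213 in H375A. These groups did not overlap (log2 difference -0.65, paired limma adjusted p = 0.0433). The greatest rise was at positions 2701 to 2800 of ITS1, which span the A2 and A3 sites, with 0.153, 0.183, 0.270 and 0.233 in WT and 0.202, 0.246, 0.402 and 0.289 in H375A. It was higher in 4 of 4 pairs, with overlapping groups (log2 difference 0.43, paired limma adjusted p = 0.0862).

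Along 18S itself depth fell toward the 3' end in 7 of 8 libraries. The last 200 nt held 0.431, 0.831, 0.546 and 0.590 of the depth of the first 200 nt in WT and 0.493, 1.04, 0.572 and 0.706 in H375A. H375A was the higher in 4 of 4 pairs, within a spread in which replicate 2 was the highest of both genotypes (log2 difference 0.21, exact permutation p = 0.514). The choice of reference within 18S therefore moved the ratios, as given for 25S and the 5' ETS above.

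Depth steps were read at the cuts as the mean depth of the 50 nt after a position over that of the 50 nt before it. The median position of the profile had a step of 1.28-fold in either direction over the 8 libraries, and the 95th percentile was 2.17-fold. At A0 there was no step, 1.02 ± 0.201 in WT and 1.03 ± 0.253 in H375A. At A1, where mature 18S begins, depth after the cut was 1.90 ± 0.323 and 1.74 ± 0.199 times that before it, a step exceeded by 11.99% of positions. At D, where it ends, it dropped to 0.432 ± 0.0809 and 0.439 ± 0.102.

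A2 and A3 differed from each other in both genotypes. At A2 the ratio was 0.858 ± 0.219 in WT and 0.900 ± 0.140 in H375A, a step exceeded by 70.02% of positions. At A3 it was 0.327 ± 0.146 and 0.240 ± 0.0904, exceeded by 0.611% of positions. Depth dropped at A3 in all 8 libraries, with 0.179, 0.277, 0.327 and 0.526 in WT and 0.230, 0.144, 0.362 and 0.222 in H375A, whereas at A2 it was above 1 in WT replicate 1 and H375A replicate 4.

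At the 5' end of 5.8S (B1) depth rose 9.14 ± 5.38 times in WT and 7.0 ± 2.62 times in H375A. At E, the 3' end of 5.8S, it dropped to 0.337 ± 0.0555 and 0.398 ± 0.138. C2, a cut within ITS2, left 0.671 ± 0.218 and 0.741 ± 0.206. At C1, where 25S begins, depth rose 5.65, 3.94, 2.49 and 4.09 times in WT and 3.94, 2.12, 2.16 and 3.22 times in H375A. The step at C1 was smaller in H375A in 4 of 4 pairs while the groups overlapped (log2 difference -0.49, limma adjusted p = 1.00, unadjusted 0.127, with the replicate block adjusted p = 0.878).

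By limma, 0 of 6548 positions (0%) were called for a different step, with 7 positions at an unadjusted p under 0.05 and 323 with the replicate block. Neither count exceeds the share that a threshold of 0.05 gives by chance. The lowest limma adjusted p with the block was 0.878. Of the 10 largest steps at least 50 nt apart, 5 lay within 4 nt of a cut, at D, A3, B1, E and C1. The other 5 lay inside 18S (positions 1663 and 1750) and 25S (positions 5282, 5902 and 6567), and were of like size in both genotypes, such as 2.90 ± 0.578 in WT and 3.14 ± 0.812 in H375A at position 5282.

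Mutation rates without DMS were tested by edgeR's quasi-likelihood test at 556 sites covered by 100 or more reads (effective depth) in every library and with at least 10 mutated reads on average, 391 of them in the 5' ETS, 161 in 18S, 3 in ITS1 and 1 in 25S. No site was called: 0 of 556 (0%), with 8 at an unadjusted p under 0.05 and a lowest adjusted p of 0.996. DESeq2 and limma also called 0, with 1 and 13 sites at an unadjusted p under 0.05. Libraries of the genotypes did not overlap at 11 sites (1.98%), and 551 sites differed by less than 2-fold in the fit. With the replicate number as a block edgeR called 1 of 556 sites (0.18%), U1891. The same-number correlations of site rates were 0.239, 0.224, 0.432 and 0.0992, the last just under the limit of 0.1 used for pairing. The highest correlations with another number were 0.0914, 0.0628, 0.337 and 0.0758. Each was below its same-number value, narrowly so for number 4. The pairing is therefore less firm for rates than for depth.

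**Figure D4:**
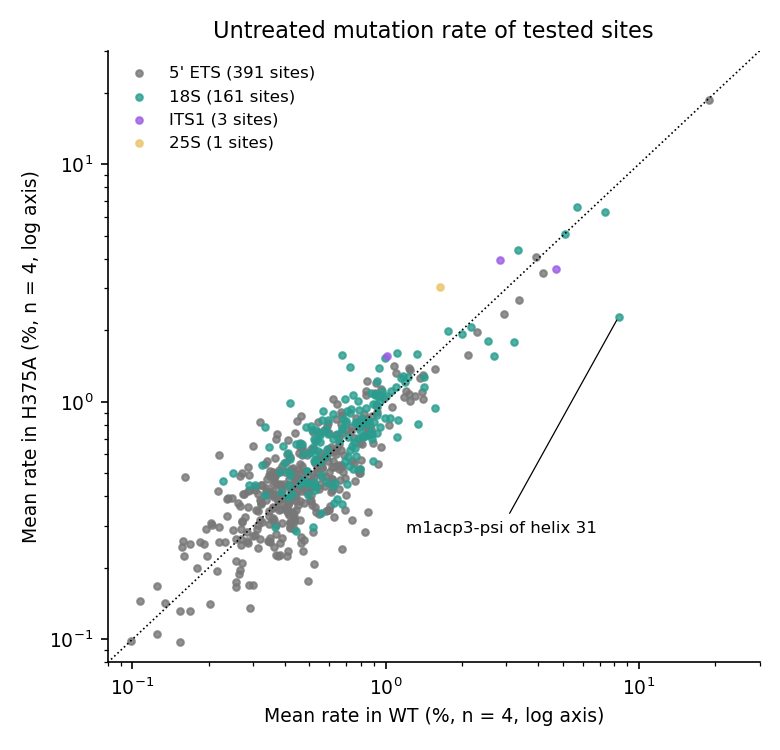
Mean mutation rate without DMS in WT (horizontal log axis) and H375A (vertical log axis), n = 4 libraries each, for the 556 tested sites coloured by region, with a dotted line at equal rates. Most sites lie along the line, and the m1acp3-pseudouridine of helix 31, at 8.32% in WT and 2.28% in H375A, lies farthest below it among sites of high rate.

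The m1acp3-pseudouridine of helix 31 (U1891) read lower in H375A within each pair of libraries. Its mutation rate was 1.73%, 11.6%, 11.02% and 8.97% in WT replicates 1 to 4 and 0.256%, 3.39%, 4.17% and 1.31% in H375A replicates 1 to 4, at effective depths of 229 to 4409. WT replicate 1, with 4 mutated reads of 231, lay within the range of H375A, and each H375A library lay below the WT library of its number. H375A replicates 1 and 4 rest on 1 mutated read of 391 and 3 of 229. In pair 1 the 95% Wilson intervals overlapped, 0.675% to 4.37% in WT and 0.0452% to 1.43% in H375A. The exact sign-flip p of the 4 pairs was 0.125, the lowest that 4 pairs allow. Means were 8.32% ± 4.54 and 2.28% ± 1.81 (SD, n = 4, exact permutation p = 0.0857, or 0.0286 without WT replicate 1). In edgeR the log2 change was -1.70 (SE 0.51, adjusted p = 0.996), and with the replicate block -1.72 (edgeR adjusted p = 5.42e-07). Over the 18 settings run the change stayed between -2.16 and -1.40, while its edgeR, DESeq2 or limma adjusted p ran from 5.42e-07 to 1.00. In the DMS libraries the base read 10.3% ± 4.67 and 2.98% ± 1.33 with overlap (exact permutation p = 0.0571).

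The m7G at nucleotide 1575 of 18S (G2275) had low rates that did not overlap between genotypes. It read 0.723%, 0.870%, 0.592% and 0.513% in WT and 0.177%, 0.274%, 0.407% and 0% in H375A. These rest on 3, 12, 9 and 2 mutated reads in WT and on 1, 4, 23 and 0 in H375A, and 0 of 304 reads in H375A replicate 4 allows a rate of up to 0.987%. Means were 0.675% ± 0.157 and 0.215% ± 0.171 (exact permutation p = 0.0286, or 0.0571 without WT replicate 1 or 2), and WT lay above H375A in 4 of 4 pairs. Where edgeR included it, with at least 3 mutated reads on average, the log2 change was -1.11 (edgeR adjusted p = 0.999). Over all G of 18S the rate without DMS was 0.425% in WT and 0.421% in H375A. The mean at G2275 thus lay above that background in WT and below it in H375A. Whether the rate at G2275 reads the m7G mark was not tested. In the DMS libraries the base read 0.784% and 0.561% with overlap (exact permutation p = 0.257).

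The other modified bases of 18S did not differ detectably at this depth. The N4-acetylcytidines made by Kre33 read 1.76% and 1.31% at nucleotide 1280 (exact permutation p = 0.371) and 0.868% and 0.801% at nucleotide 1773 (exact permutation p = 0.8286). The adjacent dimethyladenosines made by Dim1 read 0.514% and 0.308% at nucleotide 1781 (exact permutation p = 0.314) and 0.803% and 0.852% at nucleotide 1782 (exact permutation p = 0.743).

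In 25S, m1A and m3U left strong signals without DMS, with rates that overlapped between genotypes at both m1A bases and not at 1 of the 2 m3U bases. The m1A at nucleotide 645 read 79.8%, 75.2%, 73.3% and 69.6% in WT and 77.0%, 75.9%, 75.5% and 76.4% in H375A (exact permutation p = 0.486, or 0.0286 without WT replicate 1, the highest of all). The m1A at nucleotide 2142, made by Bmt2, read 57.1% ± 4.23 and 54.8% ± 6.48 (exact permutation p = 0.543).

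The m3U at nucleotide 2843 (U6094) read 51.5%, 54.8%, 53.3% and 58.1% in WT and 38.9%, 38.0%, 42.7% and 42.3% in H375A. Every H375A library lay below every WT library, at depths of 71 to 1294. Means were 54.4% ± 2.79 and 40.5% ± 2.32, a difference of -13.95 percentage points (SE 1.82, exact permutation p = 0.0286). With a depth minimum of 50 it entered the site test, where its log2 change was -0.43 (edgeR adjusted p = 0.997, unadjusted 0.0044). In the DMS libraries it read 52.0% and 41.4% (exact permutation p = 0.0857).

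The m3U at nucleotide 2634 (U5885) read 55.6%, 58.1%, 51.4% and 54.5% in WT and 40.0%, 28.3%, 35.5% and 55.6% in H375A. H375A replicate 4, the shallowest at 18 reads, lay within WT and the other 3 below it (means 54.9% ± 2.79 and 39.8% ± 11.5, exact permutation p = 0.114, or 0.0286 without H375A replicate 4). The 5-methylcytidines, made by Rcm1 and Nop2, were near background at nucleotides 2278 (0.293% and 0.0360%) and 2870 (0.682% and 0.868%). In all, 12 modified bases were compared, and the p-values here are unadjusted; depth of 25S was itself lower in H375A, and its part in the m3U rates was not tested.

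**Figure D5:**
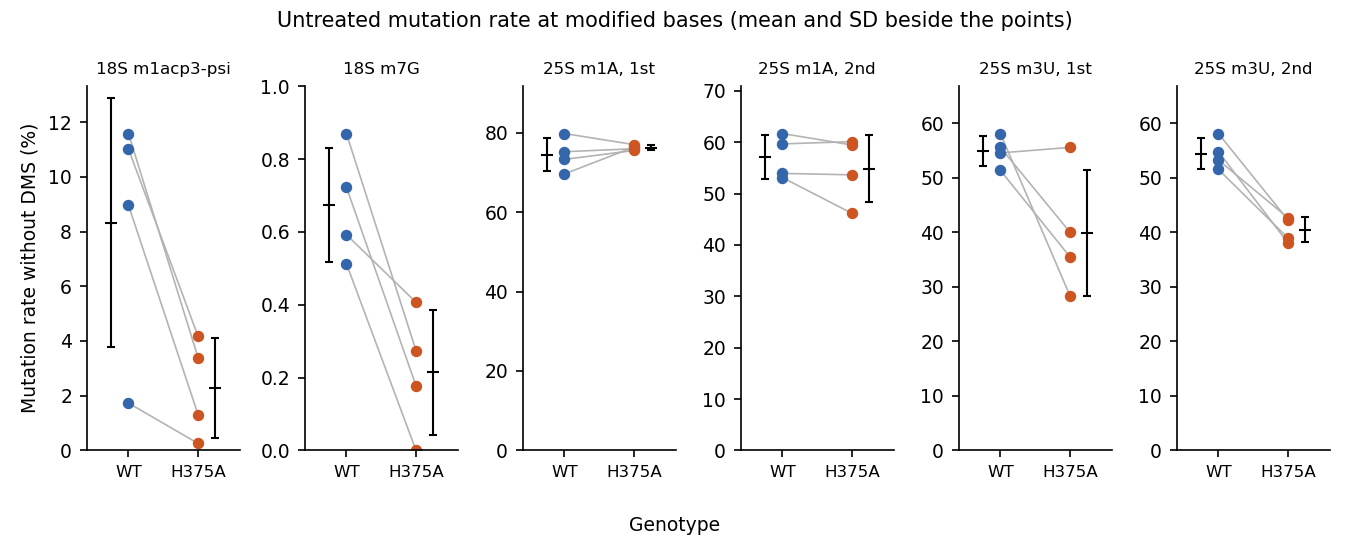
Mutation rate without DMS (percent, vertical axes from 0, each panel its own scale) at 6 modified bases, 1 point per library, WT in blue and H375A in orange, with lines joining libraries of the same number and mean and SD beside the points. The helix 31 base of 18S falls within each pair, the m7G of 18S and the second m3U of 25S (nucleotide 2843) do not overlap between genotypes, and both m1A bases do.

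Pseudouridines and 2'-O-methylated bases, which leave the pairing face free, had list medians under 0.5%, far below the m1A and m3U bases. The 18 methylated bases of 18S had a median rate of 0.412%, against 0.343% at other 18S sites, and 10 of its 13 pseudouridines had the depth, with a median of 0.400% against 0.339% at other U. In 25S the medians were 0.304% for 13 of 38 methylated bases and 0.245% for 5 of 30 pseudouridines, against 0.340% and 0.325%. By genotype, in WT and H375A, the medians were 0.449% and 0.434% over the methylated bases of 18S and 0.373% and 0.388% over its pseudouridines. In 25S they were 0.338% and 0.309% over the methylated bases and 0.155% and 0.340% over the 5 pseudouridines. Of these lists, edgeR tested 6 methylated bases and 1 pseudouridine, all in 18S, and called 0.

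Among the 556 tested sites, those misread most without DMS mostly had a run of 1 base beside them. The m1A and m3U bases of 25S read higher but lacked the depth to be tested. Of the 10 tested sites with the highest mean rate 8 lay in or next to a run of at least 5 identical bases, against 37 of the other 546 (6.78%). The highest of the tested sites was G635 in the 5' ETS, between A0 and A1, followed by G1753 of 18S. Each is shown here with its base in capitals before the run.

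G635: gaauagguggGaaaaaaaaaa
G1753: aucgggugguGuuuuuuuaau

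G635 read 26.0%, 16.5%, 16.4% and 16.8% in WT and 22.4%, 15.2%, 16.3% and 20.6% in H375A. G1753 read 7.35% ± 2.22 in WT and 6.26% ± 0.823 in H375A. Groups overlapped at both, with edgeR log2 changes of -0.02 and -0.23 (edgeR adjusted p = 0.996 for both). A1319, the 2'-O-methylated A at nucleotide 619 of 18S, sits at such a run too and read 5.13% ± 1.04 and 5.10% ± 0.483. U1891 and A2625 were the sites among the 10 with no run beside them.

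Apart from U1891, the sites with the lowest unadjusted p had mean rates under 1%, and 7 of these 9 lay in the 5' ETS, which held 391 of the 556 tested sites. A520 of the 5' ETS read 0%, 0.267%, 0.328% and 0.287% in WT and 0.756%, 0.348%, 0.519% and 0.762% in H375A, without overlap (edgeR log2 change 0.93, adjusted p = 0.996). C204 read 0.449% ± 0.127 and 0.828% ± 0.107, also without overlap (edgeR log2 change 0.79, adjusted p = 0.996). Among those lower in H375A, A557 read 0.854% ± 0.425 and 0.343% ± 0.135 without overlap, and A228 read 0.736% ± 0.202 and 0.317% ± 0.315 with it. None of these was called by edgeR (adjusted p = 0.996 for each), with or without the block.

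By base and region, mean rates were near each other in all 24 combinations. They ran from 0.287% to 0.505% in WT and from 0.346% to 0.581% in H375A, 13 combinations higher and 11 lower in H375A. None had an exact permutation p under 0.05, and the lowest was 0.0857, for A of ITS2 (adjusted over 24 combinations 0.904).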

How the data were processed

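The authors' deposited profiles, 1 per library, gave for each nucleotide counts of mutated reads, of covering reads (read depth) and of reads of sufficient quality (effective depth), and a rate given as a fraction. Per the file headers it is mutated reads over effective depth, which the values bear out. Aligner, mutation caller, filters and duplicate handling are not given in the sources used here; they act on every rate and depth. Groups came from the labels, and no 2 libraries were identical.

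Depth was divided by the mean read depth of 18S (positions 701 to 2500), averaged over stretches, over bins of 100 nt and over 50 nt on either side of each position. Bins and steps were tested with limma 3.58.1 and sites with edgeR 4.0.16 (log effective depth as offset) in R 4.3.3, with Benjamini-Hochberg adjustment over all bins, steps or sites; an adjusted p under 0.05 was called. Zero counts had 0.5 reads added where logs were taken of rates. Stretches, the slope of 18S, rates by base and single modified bases were compared by exact two-sided permutation tests over libraries (scipy 1.17.1); 4 pairs allow no p below 0.125. Upper limits for a count of 0 use 3 counts. The unpaired fits of sites, bins and steps were checked on simulated data that drew bins and steps independently, whereas real neighbours share reads. Paired fits were not checked in that way. Replicate numbers of both genotypes are shared in the labels; every same-numbered pair of libraries deviated together in depth (lowest correlation 0.417), so the numbers were taken to pair the libraries, and fits with the replicate number as a block are given where they change a call. The labels do not say what a number shares.

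Named items were the modified bases, sites called or lowest in p in each direction (5 each) and the 10 highest rates among tested sites. Also named were the 10 largest steps, the bins of greatest rise and fall, and all stretches and cuts. The members, lists and alternatives were chosen with earlier results of these data known. Positions of cuts and of the 111 modified bases were entered from general knowledge, and all 111 had the right letter in the profile. Alternatives were DESeq2 1.42.0, limma on rates, other filters, references, bin widths, flanks and depth columns, and leaving out each library.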

Additional observations from a re-analysis of the deposited data

Results flagged for a closer look

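There were 6 values that lay far from the other libraries of their group by Dixon's criterion, among 128 groups of 4 values examined, where chance alone gives about 1 in 20, or 6.4. Depth from A3 to 5.8S was 0.140 of 18S in H375A replicate 3 against 0.0412 to 0.0578 in the other 3. The rate of U in the 5' ETS was 0.369% in WT replicate 1 against 0.409% to 0.415%. The rate of A in 5.8S was 0.498% in H375A replicate 2 against 0.351% to 0.373%, and that of G in 25S was 0.475% in WT replicate 4 against 0.398% to 0.409%. C5529, a 5-methylcytidine of 25S, read 0.144% in H375A replicate 3, with 3 mutated reads of 2081, and 0 in the others at depths of 78 to 422. G635, beside the longest run of 1 base among the sites of high rate, read 26.0% in WT replicate 1 against 16.4% to 16.8%.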

How the results depend on the processing

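Direction was kept under all 13 alternatives for 25S (-0.62 to -0.37 on the log2 scale), the 5' ETS up to A0, 5.8S, both stretches between D and A3 and ITS2 up to C2, and in 7 of 13 for A0 to A1, A3 to 5.8S and ITS2 after C2. With the replicate number as a block, the sites called rose from 0 to 1 (edgeR) and the bins from 0 to 20 (limma); exact sign-flip tests of pairs, which cannot go below 0.125, gave that p for the m7G of 18S (-0.46 percentage points) and the m3U at U6094 (-13.95). A term for replicates 1 and 4 against 2 and 3 also gave 1 site, U1891 (-1.88, edgeR adjusted p = 0.0222). Over read depth the m3U at U5885 differed by -14.1 percentage points. Its unadjusted exact permutation p was 0.0286 there and 0.114 over effective depth.

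Leaving out 1 library gave 0 to 37 bins called unpaired (37 without WT replicate 1) and 46, 0, 11 and 4 in the paired fit without replicates 1 to 4, chosen after seeing the data, which gave 61 of 133 with bins of 50 nt. Single-library omissions moved U1891 between -8.24 and -4.96 percentage points, G2275 between -0.52 and -0.39, A3896 between 0.125 and 3.52 and U5885 between -20.3 and -11.2, and changed which side of 0.05 the exact p lay for each. The block changed no other call. In 25S 1304 sites had the depth and 1 also had the mutated reads for the site test.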
